A study of Homo sapiens with 36 samples.

Results

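The genes described are 10 regulators that set a cell on the epithelial or the mesenchymal side of the epithelial to mesenchymal transition (EMT): SNAI1, SNAI2, ZEB1, ZEB2, TWIST1, TWIST2 and PRRX1, which drive it, and GRHL2, OVOL1 and ESRP1, which hold the epithelial state. They were chosen by symbol, each as the transcript cluster that carries that symbol alone, and where a gene had more than 1 such cluster the one with the highest mean over all arrays was read. Of the 10 genes, 9 had a cluster, among 18417 genes that could be named on 33297 transcript clusters. The last, ESRP1, was not analysed here. ZEB2 had a second cluster, which is given beside the first.

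EMT is the programme by which an epithelial cell gives up its junctions and polarity and becomes motile, in the embryo, in wound repair and in carcinoma. Its transcription factors fall into the zinc-finger SNAI and ZEB families, the helix-loop-helix TWIST family and the homeobox factor PRRX1. SNAI and ZEB proteins bind the E2-box, CACCTG, in promoters of epithelial genes such as CDH1 (E-cadherin) and repress them. In the alveolar epithelium the programme is known as a response to transforming growth factor beta (TGF-β), which induces most of these factors. GRHL2 and OVOL1 are transcription factors that repress ZEB1, and ESRP1 directs the epithelial splice forms of many transcripts.

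The cells were A549, a single human lung adenocarcinoma line used as a model of alveolar type II epithelium. They were kept for 1, 3 or 5 weeks in low-serum medium with cigarette smoke extract (CSE) at 1%, 5% or 10%, renewed daily, or without it (control). There were 12 groups of 3 Human Gene 1.0 ST arrays, 36 in all, and the study describes the 3 as independent experiments. The labels of the 5-week controls conflict: their titles give 5 weeks, while all 3 free-text descriptions and 2 of the 3 source names give 3 weeks. Levels are log2 RMA values as deposited, so that a difference of 1 is a 2-fold change, and a level of one gene cannot be set against that of another.

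All transcript clusters were tested with limma, 1 coefficient per group, and a gene was called changed at a Benjamini-Hochberg adjusted p under 0.05. The arrays carried the simple epithelial keratins KRT8 and KRT18 at means from 13.0 to 13.6 over the 12 groups. The surfactant gene SFTPC, which defines type II cells, had group means from 5.97 to 6.37. These lay below every array median (6.72 to 6.91), so this defining marker was not high in any group. Over the 7 type II markers measured, means over all arrays ran from 5.50 (LAMP3) to 8.57 (ABCA3). Of markers of other cells, means over all arrays ran from 3.86 (LUM) to 7.67 (COL1A1) for 8 of fibroblasts, 4.74 (TEK) to 5.79 (CDH5) for 6 of endothelium and 3.87 (PTPRC) to 10.1 (CD68) for 6 of immune cells. No fibroblast or endothelial marker rose in any of the 9 comparisons with control. Of 5 alveolar type I markers, CAV1 (mean 11.3) was called higher in all 9 (0.48 to 1.65). With the controls of weeks 1 and 3 it was higher at 5 weeks too (0.63, 1.19 and 1.33 with CSE 1%, 5% and 10%). AGER, PDPN, AQP5 and HOPX were never called higher. Of the immune markers LYZ rose with CSE 1% at 5 weeks (0.64, adjusted p = 0.00265, and 0.43, adjusted p = 0.0439, with the controls of weeks 1 and 3), and PTPRC with CSE 10% at 5 weeks over the controls of weeks 1 and 3 alone (0.34, adjusted p = 0.00269). Falls in this list were larger. CD68 was lower by -1.41 with CSE 1% at 5 weeks (adjusted p = 7.99e-10) and LYZ by -1.81 with CSE 10% at 1 week (adjusted p = 2.33e-09). CD14 and MS4A1 were lower at 5 weeks with the week-5 controls, and not with the earlier ones. All 3 control arrays of week 5 differed from the other 33. Their log2 values had a standard deviation of 2.15 to 2.21 (2.25 to 2.31 elsewhere) and scored -111 to -74.6 on the first principal component (-61.2 to 47.1 elsewhere). Results at 5 weeks are therefore given with 2 sets of controls, those of week 5 and the 6 earlier ones of weeks 1 and 3. The mean level of the following lists was highest in the week-5 controls. Over the 8 fibroblast markers it was 6.00 there, against 5.64 to 5.79 in the other groups, and over the 6 endothelial markers 5.50, against 5.11 to 5.25. Over the 6 immune markers it was 6.33, against 5.77 to 6.27, and over 16 genes of other tissues 5.91, against 5.45 to 5.71. The part of this shift in the results was not tested. Over those 16 genes the median log2 fold change of CSE 5% at 5 weeks was -0.35 with the week-5 controls and -0.04 with the earlier ones. Where a call was made with the week-5 controls alone, what these arrays added cannot be told apart from what CSE did. The earlier controls had a shorter time in culture, so with them CSE cannot be told apart from longer culture. Between control cells of 3 and 1 weeks, 6.23% of all clusters were called higher and 5.27% lower.

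The promoter letters of both ZEB genes are shown first because ZEB1 was the only driver with higher levels under CSE at all 3 times, while its paralog ZEB2 was never called higher. They are the 250 bases before a start site in RefSeq (GRCh38.p14), printed in the direction of the gene, and capitals mark the E2-box CACCTG or its reverse complement CAGGTG on either strand. ZEB1 lies at chr10:31318417-31529804 on the plus strand. RefSeq lists 7 start sites, and the 2 windows that hold an E2-box are chr10:31318167-31318416 and chr10:31318966-31319215. The single ZEB2 window is chr2:144520120-144520369 on the minus strand, just before the gene at chr2:144384081-144520119.
ZEB1, first start site: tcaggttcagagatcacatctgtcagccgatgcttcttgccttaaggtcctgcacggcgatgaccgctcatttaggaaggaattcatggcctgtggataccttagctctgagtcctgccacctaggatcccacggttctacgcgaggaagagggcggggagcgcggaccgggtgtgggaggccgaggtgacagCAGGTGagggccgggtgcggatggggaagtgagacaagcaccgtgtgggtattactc
ZEB1, the third start site: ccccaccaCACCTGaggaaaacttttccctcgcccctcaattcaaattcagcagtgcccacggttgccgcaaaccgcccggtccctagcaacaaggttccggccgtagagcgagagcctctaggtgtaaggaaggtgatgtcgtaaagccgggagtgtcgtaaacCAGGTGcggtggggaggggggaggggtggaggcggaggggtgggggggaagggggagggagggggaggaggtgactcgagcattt
ZEB2: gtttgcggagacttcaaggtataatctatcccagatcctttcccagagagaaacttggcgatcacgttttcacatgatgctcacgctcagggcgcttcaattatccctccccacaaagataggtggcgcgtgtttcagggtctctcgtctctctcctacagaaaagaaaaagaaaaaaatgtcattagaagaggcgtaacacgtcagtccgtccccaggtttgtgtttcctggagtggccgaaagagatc
In these windows the E2-boxes of ZEB1 began 57 bases before the first start site and 242 and 85 bases before the third. The ZEB2 window held none, nor did the windows of TWIST2 and PRRX1, 1 each. Of all 35116 windows of this length, 17.5% held an E2-box. The core of the xenobiotic response element, GCGTG or its reverse complement CACGC, which the aryl hydrocarbon receptor binds, was in 2 of the 7 ZEB1 windows and in the ZEB2 window, against 32.2% of all windows. The AP-1 motif TGACTCA or its reverse complement TGAGTCA was in none of the windows of ZEB1, ZEB2, TWIST2 and PRRX1, against 4.2% of all windows. These are matches of letters and not measured sites.

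ZEB1 is best known for being held down by the miR-200 family, whose seeds pair with its transcript and which ZEB1 in turn represses. Their mature sequences from RefSeq follow, with the seed (bases 2 to 8) in capitals, since their precursor genes are on the same arrays. The family falls into 2 seed groups. The first group shares the seed AAUACUG.
hsa-miR-200b-3p: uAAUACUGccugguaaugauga
hsa-miR-200c-3p: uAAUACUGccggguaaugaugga
hsa-miR-429: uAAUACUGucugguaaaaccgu
The other group shares the seed AACACUG.
hsa-miR-141-3p: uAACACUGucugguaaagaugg
hsa-miR-200a-3p: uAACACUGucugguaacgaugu
miR-200b, miR-200a and miR-429 lie together on chromosome 1, and miR-200c and miR-141 on chromosome 12. The arrays read the precursor transcripts of these genes and not the mature strands, and their values are given below with those of ZEB1.

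**Figure D1:**
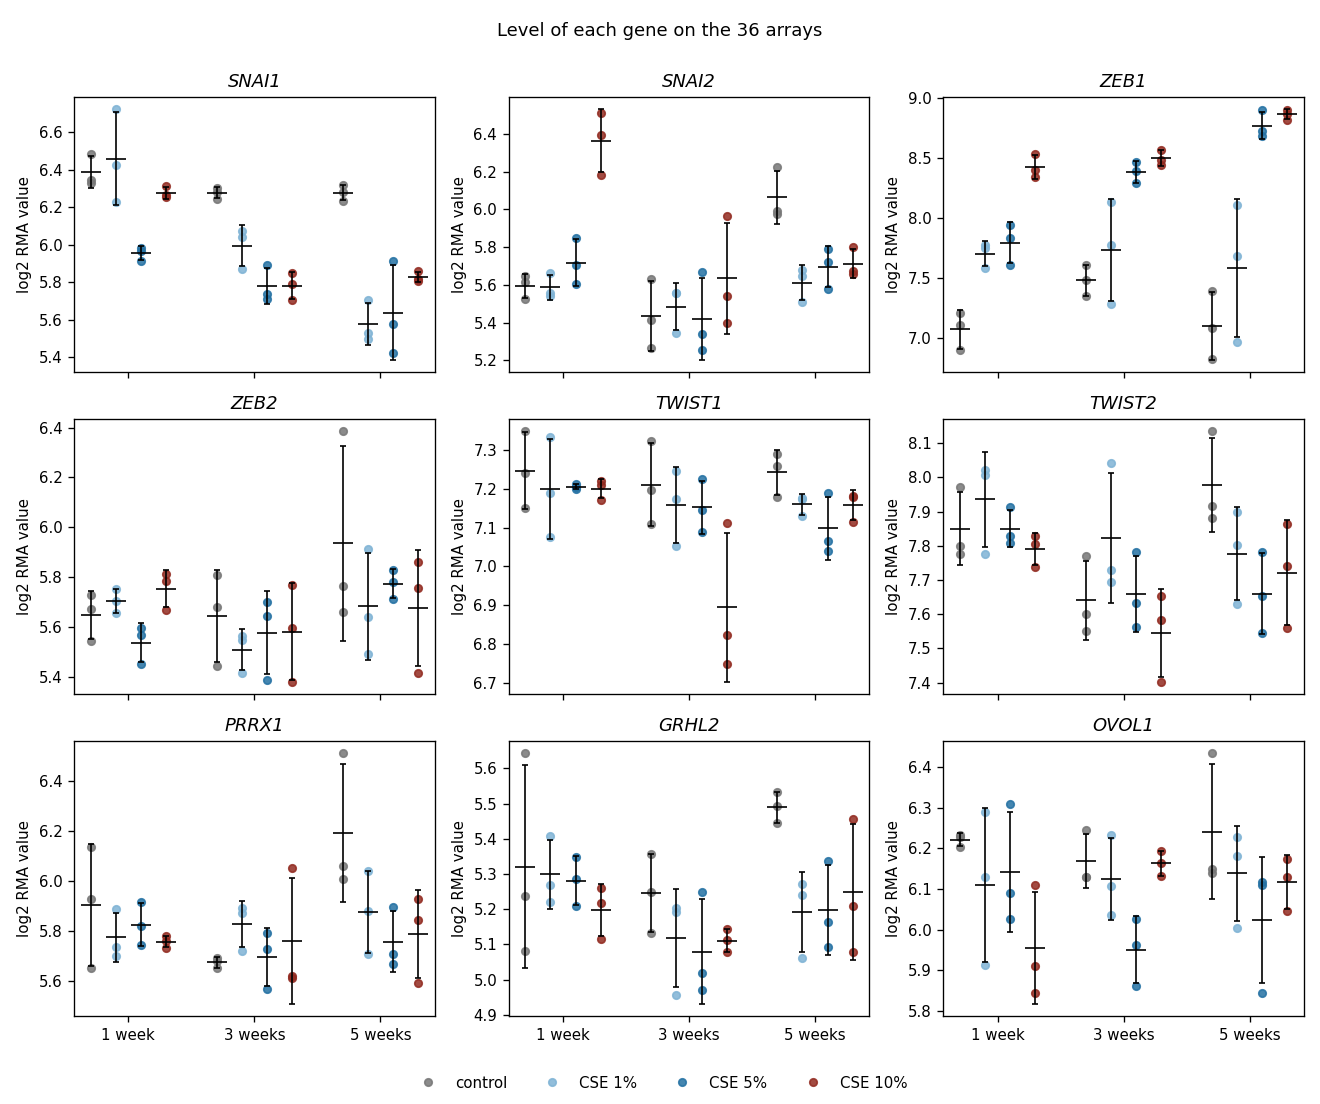
The log2 RMA value of each of the 9 genes (vertical axis, scaled per gene) on each array, by week and CSE concentration (horizontal axis, from control to CSE 10% within a week); points are arrays, lines are the mean ± SD of 3. The group mean of ZEB1 climbs with concentration at each time, though arrays of some neighbouring concentrations overlap. SNAI1 lies lower with CSE at 3 and 5 weeks, and the 5-week controls hold the highest group mean of ZEB2, TWIST2, PRRX1, GRHL2 and OVOL1.

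ZEB1, the zinc-finger repressor of CDH1 and of the miR-200 genes, was higher with CSE at each time, and its group means rose with the concentration. Neighbouring concentrations were not tested against each other. The arrays of CSE 1% and 5% overlapped at 1 week, and those of CSE 5% and 10% at 3 and 5 weeks. At 1 week ZEB1 read 7.22, 7.11 and 6.90 on control arrays, 7.78, 7.59 and 7.75 with CSE 1%, 7.84, 7.61 and 7.94 with CSE 5%, and 8.34, 8.41 and 8.54 with CSE 10%. Every exposed array at 1 week was above every control array. In RNA from a whole culture, more cells with the transcript and more transcript per cell cannot be told apart. The log2 fold changes over control were 0.63 ± 0.19 (SE, adjusted p = 0.047) with CSE 1%, 0.72 ± 0.19 (adjusted p = 0.0104) with CSE 5% and 1.35 ± 0.19 (adjusted p = 3.54e-06) with CSE 10%. The last is 2.55-fold. The call with CSE 1% was lost when any single one of its 6 arrays was left out (adjusted p from 0.0566 to 0.181), and when most single arrays of the other groups were. That with CSE 5% was lost without control replicate 3 (0.0685) or without CSE 5% replicate 3 (0.0553).

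At 3 weeks ZEB1 read 7.49, 7.35 and 7.61 on control arrays, 8.14, 7.77 and 7.29 with CSE 1%, 8.47, 8.29 and 8.40 with CSE 5%, and 8.49, 8.45 and 8.57 with CSE 10%. The CSE 1% arrays were spread over 0.43 (SD) and overlapped the controls, while both higher concentrations lay above them on every array. Fold changes on the log2 scale were 0.25 ± 0.19 with CSE 1% (adjusted p = 0.513), 0.90 ± 0.19 with CSE 5% (adjusted p = 7.39e-04) and 1.02 ± 0.19 with CSE 10% (adjusted p = 1.38e-04). The 3-week controls were themselves 0.41 above the 1-week controls, which did not pass (adjusted p = 0.181).

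At 5 weeks ZEB1 read 6.83, 7.40 and 7.08 on control arrays, 6.97, 7.68 and 8.11 with CSE 1%, 8.90, 8.68 and 8.73 with CSE 5%, and 8.82, 8.87 and 8.90 with CSE 10%. The CSE 1% arrays were again scattered (SD 0.57) and overlapped the controls. The log2 fold changes were 0.48 ± 0.19 (adjusted p = 0.0328), 1.67 ± 0.19 (adjusted p = 4.30e-08) and 1.76 ± 0.19 (adjusted p = 1.57e-08) with CSE 1%, 5% and 10%, the last 2 being 3.17-fold and 3.38-fold. They were 0.31 ± 0.16 (adjusted p = 0.234), 1.49 ± 0.16 (adjusted p = 3.74e-08) and 1.58 ± 0.16 (adjusted p = 1.12e-08) with the earlier controls. Both higher concentrations passed with either set of controls. CSE 1% passed only with the week-5 set, where it was lost without control replicate 1 (0.35, adjusted p = 0.183), control replicate 3, CSE 1% replicate 2 or CSE 1% replicate 3 (0.22, adjusted p = 0.322). Without CSE 1% replicate 1, the low array, it passed with the earlier controls too (0.62, adjusted p = 0.00527).

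Within each week ZEB1 was also higher with CSE 10% than with CSE 1%, a comparison that needs no control array. The differences were 0.72 at 1 week (adjusted p = 0.00939), 0.77 at 3 weeks (adjusted p = 0.00642) and 1.28 at 5 weeks (adjusted p = 1.95e-05). At 3 weeks the call was lost without CSE 1% replicate 3 (0.54, adjusted p = 0.0982). Of the 9 genes, those called between CSE 10% and CSE 1% were ZEB1 and SNAI2 at 1 week, ZEB1 and TWIST1 at 3 weeks, and ZEB1 at 5 weeks. Over all transcript clusters 11.9%, 12.3% and 8.67% were called in these comparisons at 1, 3 and 5 weeks. Ordered by group mean, ZEB1 ran from CSE 10% at 5 weeks (8.86) and CSE 5% at 5 weeks (8.77) down to the controls of week 5 (7.10) and week 1 (7.08). A clear gap between arrays stood below CSE 5% at 5 weeks and below CSE 5% at 3 weeks (8.39 against 7.80 for CSE 5% at 1 week). Every other pair of neighbours in this order overlapped.

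**Figure D2:**
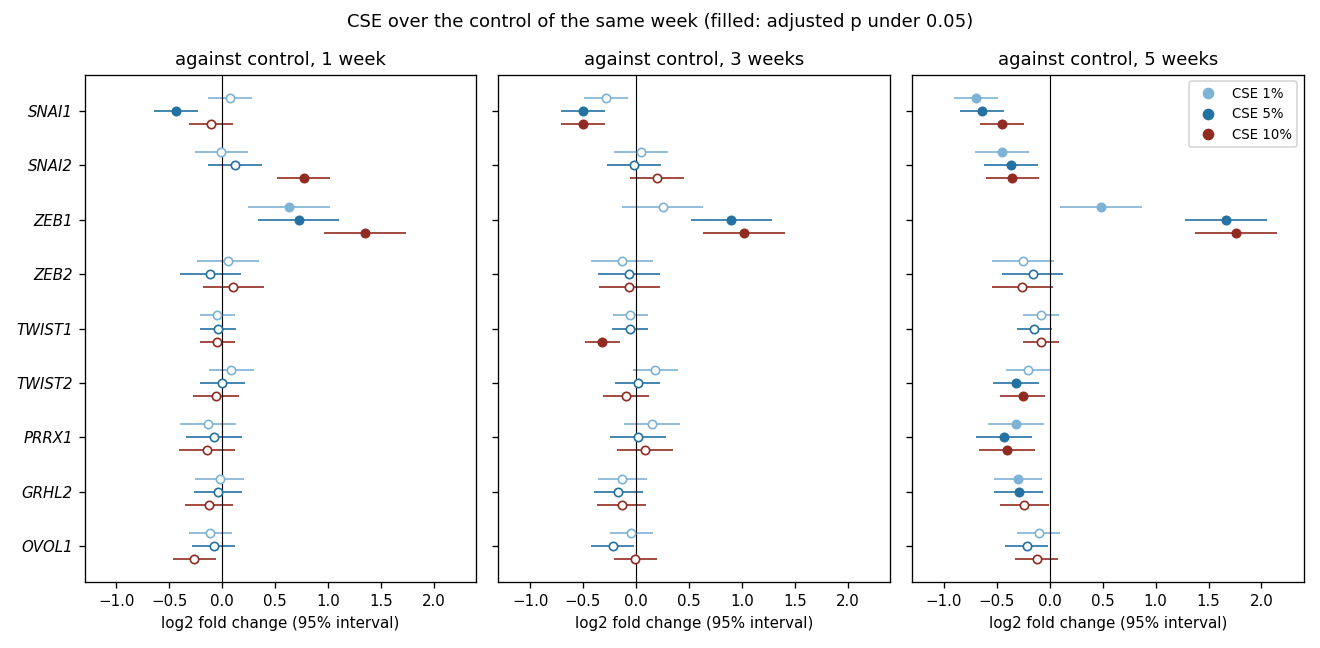
The log2 fold change of each of the 9 genes (rows) with each CSE concentration over the control of the same week (panels), with its 95% interval; filled points passed an adjusted p under 0.05. ZEB1 lies to the right of 0 and is filled in 8 of 9 comparisons, and SNAI1 is filled to the left in 6 of 9.

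SNAI1 (SNAIL), the zinc-finger factor that is usually the first to act in EMT and is turned over quickly as a protein, went the other way. All its group means (5.58 to 6.46) lay below every array median (6.72 to 6.91), where signal over background limits what a change can show. At 1 week it read 6.33, 6.35 and 6.49 on control arrays, 6.23, 6.42 and 6.72 with CSE 1%, 5.96, 5.98 and 5.91 with CSE 5%, and 6.27, 6.31 and 6.25 with CSE 10%. The CSE 5% arrays stood below the rest (log2 fold change -0.43 ± 0.10, adjusted p = 0.00394), while CSE 1% (0.07) and CSE 10% (-0.11) did not pass. This order at 1 week did not follow the concentration. At 3 weeks SNAI1 read 6.28, 6.30 and 6.25 on control arrays, 6.07, 6.04 and 5.87 with CSE 1%, 5.71, 5.74 and 5.89 with CSE 5%, and 5.70, 5.85 and 5.79 with CSE 10%. All 9 exposed arrays were below all 3 controls. The log2 fold changes were -0.28 ± 0.10 (adjusted p = 0.0707), -0.50 ± 0.10 (adjusted p = 5.48e-04) and -0.50 ± 0.10 (adjusted p = 4.17e-04) with CSE 1%, 5% and 10%.

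At 5 weeks SNAI1 read 6.28, 6.32 and 6.23 on control arrays, 5.50, 5.53 and 5.71 with CSE 1%, 5.42, 5.57 and 5.91 with CSE 5%, and 5.86, 5.81 and 5.81 with CSE 10%. Again no exposed array reached a control. The log2 fold changes were -0.70 ± 0.10 (adjusted p = 5.05e-06), -0.64 ± 0.10 (adjusted p = 6.63e-06) and -0.45 ± 0.10 (adjusted p = 4.43e-04), or 0.615, 0.641 and 0.732 of the control level. They were -0.75 ± 0.09 (adjusted p = 2.16e-07), -0.70 ± 0.09 (adjusted p = 4.61e-07) and -0.51 ± 0.09 (adjusted p = 5.36e-05) with the earlier controls. SNAI1 was the only one of the 9 genes called lower at 5 weeks against both sets of controls. Its 5-week and 3-week controls had equal means (6.28 and 6.28), which under cyclic loess scaling became a difference of -0.24 (adjusted p = 0.0477). The difference between CSE 10% and CSE 1% passed at no time (-0.18, -0.21 and 0.25 at 1, 3 and 5 weeks, adjusted p = 0.307, 0.187 and 0.138).

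SNAI2 (SLUG), the close relative of SNAI1 that also acts in wound re-epithelialisation, was called higher over control in 1 group, CSE 10% at 1 week. Centring arrays on housekeeping genes moved the median of all clusters with CSE 10% at 3 weeks from 0.01 to 0.22. With that centring SNAI2 was also called higher with CSE 10% at 3 weeks (0.40, adjusted p = 0.0116) and, with the earlier controls, at 5 weeks (0.34, adjusted p = 0.0158). At 1 week it read 5.52, 5.61 and 5.65 on control arrays, 5.54, 5.66 and 5.56 with CSE 1%, 5.60, 5.85 and 5.70 with CSE 5%, and 6.40, 6.18 and 6.51 with CSE 10%. The CSE 10% arrays lay above all others of that week. The log2 fold change was 0.77 ± 0.12 over control (1.70-fold, adjusted p = 2.92e-05) and 0.78 ± 0.12 over CSE 1% (adjusted p = 3.56e-05). With CSE 1% and CSE 5% it was -0.01 and 0.12 (adjusted p = 0.982 and 0.601).

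At 3 weeks SNAI2 read 5.26, 5.63 and 5.41 on control arrays and from 5.25 to 5.96 on the 9 exposed arrays, and none of the 3 concentrations passed (0.05, -0.02 and 0.20, adjusted p = 0.901, 0.947 and 0.269). At 5 weeks it read 5.97, 6.22 and 5.99 on control arrays, 5.68, 5.51 and 5.65 with CSE 1%, 5.58, 5.79 and 5.72 with CSE 5%, and 5.66, 5.80 and 5.67 with CSE 10%. The exposed arrays at 5 weeks were in the range of the other weeks, and the controls were high. Log2 fold changes were -0.45 (adjusted p = 0.0036), -0.37 (adjusted p = 0.0115) and -0.35 (adjusted p = 0.0159) with the week-5 controls, and those of CSE 5% and 10% were lost without control replicate 2 (adjusted p = 0.0692 and 0.0876). With the earlier controls they were 0.10, 0.18 and 0.20 (adjusted p = 0.632, 0.229 and 0.171), so the direction turned with the control. The 5-week controls were 0.63 ± 0.12 above the 3-week controls (adjusted p = 1.56e-04). Under cyclic loess all 3 calls against the week-5 controls were lost (-0.21, -0.11 and -0.12, adjusted p = 0.125, 0.44 and 0.391). The call with CSE 5% was also lost without CSE 5% replicate 1 (adjusted p = 0.059), and that with CSE 10% without CSE 10% replicate 1 (adjusted p = 0.0505).

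None of the other 6 genes had a call at 5 weeks that held with both control sets. ZEB2, the paralog of ZEB1, read 6.38, 5.66 and 5.76 on the 5-week control arrays, and all 33 other arrays lay between 5.38 and 5.92, so that 1 control array stood alone. None of its 9 comparisons with control passed in the cluster with the higher mean (-0.26 to 0.11 on the log2 scale), though without control replicate 2 at 5 weeks those of CSE 1% and 10% did (-0.39 and -0.40, adjusted p = 0.0317 and 0.0259). Its second cluster was called lower at 5 weeks with each concentration (-0.55, -0.73 and -0.57, adjusted p = 0.00579, 3.26e-04 and 0.00355). That cluster did not pass with the earlier controls (0.29, 0.10 and 0.27), and its 5-week controls were 0.87 above the 3-week controls. The mean of both clusters was likewise called lower at 5 weeks with CSE 1%, 5% and 10% (-0.40, -0.45 and -0.41). With CSE 10% at 5 weeks and the earlier controls, the 95% interval of the log2 fold change was -0.22 to 0.28 for ZEB2 and 1.25 to 1.92 for ZEB1.

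PRRX1, a homeobox gene of mesenchymal cells, read 6.51, 6.06 and 6.01 on the 5-week control arrays, 5.71, 5.88 and 6.04 with CSE 1%, 5.71, 5.89 and 5.67 with CSE 5%, and 5.93, 5.59 and 5.84 with CSE 10%. It was called lower with each concentration (-0.32, -0.43 and -0.40, adjusted p = 0.0407, 0.00484 and 0.00872). All 3 calls were lost without control replicate 1 (adjusted p from 0.0731 to 0.342) and with the earlier controls (0.09, -0.03 and -0.00, adjusted p from 0.691 to 0.992). Cyclic loess lost all 3 calls as well (-0.08, -0.18 and -0.18, adjusted p = 0.571, 0.17 and 0.188). The call with CSE 1% was also lost without CSE 1% replicate 1 or 2, and that with CSE 10% without CSE 10% replicate 2. At 1 and 3 weeks no concentration passed for PRRX1 (-0.15 to 0.15).

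TWIST2, a helix-loop-helix factor of dermal and mesenchymal development, read 8.13, 7.92 and 7.88 on the 5-week control arrays, 7.90, 7.80 and 7.63 with CSE 1%, 7.55, 7.65 and 7.78 with CSE 5%, and 7.56, 7.86 and 7.74 with CSE 10%. It was lower with CSE 5% (-0.32, adjusted p = 0.00976) and CSE 10% (-0.26, adjusted p = 0.0346), and both calls were lost without control replicate 1 (adjusted p = 0.0744 and 0.189). Its differences from the earlier controls were 0.03, -0.08 and -0.02 with CSE 1%, 5% and 10%. The call with CSE 5% was also lost without CSE 5% replicate 1 (adjusted p = 0.0569). That with CSE 10% was also lost without CSE 10% replicate 1 or 3 (adjusted p = 0.189 and 0.0586). TWIST1, the paralog of TWIST2 and a factor of metastasis in carcinoma, was called in 1 comparison with control. With CSE 10% at 3 weeks it read 7.11, 6.75 and 6.82, against 7.11, 7.32 and 7.20 on control arrays. Replicate 1 of that group matched the lowest control, and the log2 fold change was -0.32 ± 0.08 (adjusted p = 0.00404). It was -0.11 and did not pass with arrays centred on 23 housekeeping genes (adjusted p = 0.296). TWIST1 was also called lower with CSE 10% than with CSE 1% at 3 weeks. That call was lost with the same centring (-0.20, adjusted p = 0.125). Leaving out CSE 1% replicate 1 or 2, or CSE 10% replicate 2 or 3, lost it too (adjusted p from 0.0587 to 0.204).

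Among the epithelial regulators, GRHL2, a grainyhead factor that activates CDH1 and claudin genes, read 5.53, 5.44 and 5.49 on the 5-week control arrays, 5.24, 5.06 and 5.27 with CSE 1%, 5.16, 5.09 and 5.34 with CSE 5%, and 5.46, 5.08 and 5.21 with CSE 10%. Its differences were -0.30 (adjusted p = 0.0269), -0.29 (adjusted p = 0.0253) and -0.24 (adjusted p = 0.0637), and both calls were lost without control replicate 1 (adjusted p = 0.0825 and 0.0728). From the earlier controls it differed by -0.09, -0.09 and -0.03, and none passed. Under cyclic loess both calls were lost too (-0.05 and -0.02, adjusted p = 0.735 and 0.862). The call with CSE 1% was also lost without control replicate 3 or CSE 1% replicate 2. That with CSE 5% was also lost without CSE 5% replicate 1 or 2. OVOL1, a zinc-finger factor of epidermal differentiation, passed in no comparison with all arrays. Its lowest group means were with CSE 5% at 3 weeks (5.95, against 6.17 in control, adjusted p = 0.128) and CSE 10% at 1 week (5.96, against 6.22 in control, adjusted p = 0.066), and in both the exposed arrays lay below all controls. The call at 1 week was made without CSE 10% replicate 1 (-0.34, adjusted p = 0.0304). With CSE 5% at 5 weeks (-0.22, adjusted p = 0.0579) OVOL1 was called in 4 of the 6 fits that each left out 1 array of the comparison (adjusted p from 0.0387 to 0.0462). ESRP2, the paralog of the splicing regulator ESRP1, was added after its values were seen: it was lower at 5 weeks against the 5-week controls (-0.26, -0.41 and -0.31) and passed neither at 1 or 3 weeks nor with the earlier controls (-0.02, -0.17 and -0.07).

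Counted over the 9 genes, at 1 week 1, 1 and 2 were called higher and 0, 1 and 0 lower with CSE 1%, 5% and 10%. Of all transcript clusters 3.41%, 5.99% and 8.27% were called higher and 1.9%, 4.84% and 8.44% lower. At 3 weeks 0, 1 and 1 of the 9 were called higher and 0, 1 and 2 lower, against 5.67%, 9.7% and 14% of all clusters higher and 5.81%, 9.93% and 12.5% lower. At 5 weeks 1 of the 9, ZEB1, was called higher with each concentration and 4, 5 and 4 were called lower. There 20.3%, 23% and 21.9% of all clusters were called higher and 33.5%, 40.3% and 39.6% lower, so that the lower calls of the 9 genes were near the share of all clusters. With the earlier controls 0, 1 and 1 of the 9 were called higher at 5 weeks (ZEB1) and 1 each lower (SNAI1). The shares of all clusters were then 7.86%, 13.1% and 15% higher and 7.43%, 13% and 16% lower.

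By the rule of the study's methods, a log2 fold change beyond 1 with a B value (log-odds of a change) above 0, ZEB1 was the only one of the 9 genes called. It met the rule with CSE 10% at 1 and 3 weeks and with CSE 5% and CSE 10% at 5 weeks. At 1 week this rule called 0.324%, 0.895% and 1.52% of all clusters with CSE 1%, 5% and 10%. At 3 weeks it called 0.748%, 1.74% and 2.5%, and at 5 weeks 4.02%, 9.15% and 9.08%. Over the 9 genes the median log2 fold change at 5 weeks was -0.25, -0.29 and -0.26 with CSE 1%, 5% and 10%, beside -0.14, -0.17 and -0.17 over all clusters. With the earlier controls it was 0.03, -0.08 and -0.02, beside -0.00, -0.02 and -0.01.

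**Figure D3:**
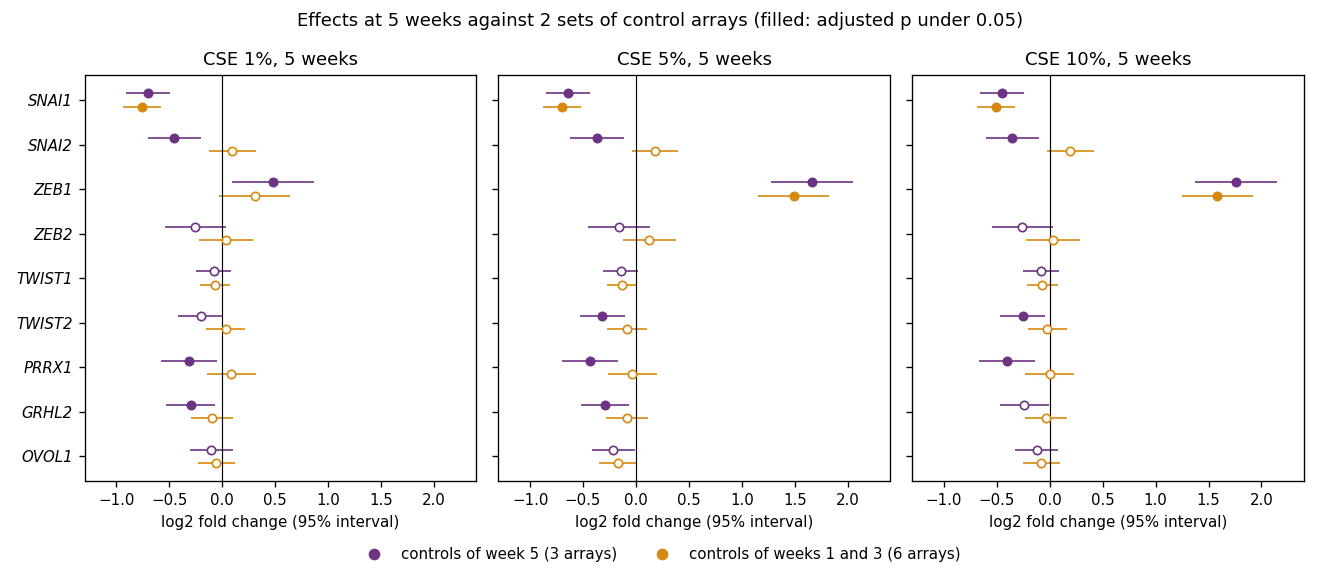
The log2 fold change at 5 weeks of each of the 9 genes (rows) with CSE 1%, 5% and 10% (panels) against the 3 control arrays of week 5 (purple) and the 6 of weeks 1 and 3 (orange), with 95% intervals; filled points passed an adjusted p under 0.05. ZEB1 (with CSE 5% and 10%) and SNAI1 are filled in both colours, while SNAI2, TWIST2, PRRX1 and GRHL2 are filled in purple only.

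Among control cells alone, none of the 9 genes was called between 3 and 1 weeks, where 6.23% of all clusters were higher at 3 weeks and 5.27% lower. Between 5 and 3 weeks SNAI2 (0.63), PRRX1 (0.52) and TWIST2 (0.34) were called higher at 5 weeks and none lower, beside 31.7% of all clusters higher and 21.8% lower. The lower calls of these 3 genes at 5 weeks were lost with the earlier controls, as were those of GRHL2, which was 0.24 in this comparison (adjusted p = 0.0681). ZEB1, whose higher call with CSE 1% was lost in the same way, was -0.38 (adjusted p = 0.0905).

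The effect of CSE at 5 weeks was set against that at 1 week by their difference within the same fit. ZEB1 rose further with CSE 5% (difference 0.95 ± 0.27, adjusted p = 0.00955), and with CSE 10% the difference of 0.41 did not pass (adjusted p = 0.247). SNAI1 had a lower effect at 5 weeks with CSE 1% (-0.70) than at 1 week, where it had not passed (0.07), and the difference was -0.77 ± 0.14 (adjusted p = 4.54e-04). SNAI2 had a lower effect at 5 weeks with CSE 10% (-1.12 ± 0.17, adjusted p = 3.16e-05) and with CSE 5% (-0.49 ± 0.17, adjusted p = 0.0344), and both take in the high 5-week controls. Counted over the 9 genes 1, 2 and 1 were called with CSE 1%, 5% and 10%, beside 21%, 30.7% and 29.6% of all clusters.

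The genes around these factors were read from lists. A list of 13 genes of TGF-β signalling held ligands, receptors, SMADs and ITGB6. It also held the inhibitors SMAD6, SMAD7, SKI and SKIL, so its counts are not those of inducers alone. Of the 13, 9 were called higher and 2 lower with CSE 5% at 5 weeks (median 0.55), beside 23% and 40.3% of all clusters. With the earlier controls 7 were higher and 1 lower (median 0.38, beside -0.02 over all clusters), where 13.1% of all clusters were higher and 13% lower. TGFB2, the ligand of that name, was higher by 1.25, 2.19 and 2.36 with CSE 1%, 5% and 10% with the earlier controls, and by 1.25, 1.16 and 2.08 at 1 week against its own. At 5 weeks with the earlier controls, TGFB1 was higher by 0.81, 1.57 and 1.5. ITGB6, the integrin subunit that frees latent TGF-β, was higher by 1.31, 2.44 and 1.59. SMAD3, which carries the signal to the nucleus, was higher by 0.85, 1.04 and 1.03, and the receptor TGFBR2 by 0.52, 0.74 and 0.80. All of these passed. Each of the lists was described by its counts and median only.

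Over the 12 group means the 3 named genes most like ZEB1 were MGAT4A (Pearson r 0.97), TGFB2 (0.96) and B4GALT6 (0.96). For SNAI1 they were PFKFB2 (0.96), SMOX (0.95) and PC (0.94), for SNAI2 RRAS2, RASGRP3 and ALOXE3 (0.93 each), and for PRRX1 COL6A2, HPN-AS1 and TRIM60 (0.97, 0.97 and 0.96). These 4 were the genes whose group means spanned at least 0.5. Each set of 3 was the top of all named genes over only 12 means, and is a description. The span of TGFB2 was 2.58 and that of ZEB1 1.79. RRAS2, by contrast, spanned 0.24.

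Of 22 other transcription factors of EMT, 4 were called higher and 11 lower with CSE 5% at 5 weeks (median -0.27), near the 23% and 40.3% of all clusters. It was 3 higher and 8 lower with the earlier controls (median -0.12), beside 13.1% and 13%. TCF4 (E2-2), a helix-loop-helix factor that partners TWIST proteins, was higher by 0.90, 1.42 and 0.62 with CSE 1%, 5% and 10% with the earlier controls. HIF1A, the oxygen-sensitive factor, differed by 0.22, 0.77 and 0.92 and ETS1 by 0.06, 0.43 and 0.55, and for both the 2 higher concentrations passed. SOX9 was lower by -0.45, -1.03 and -1.16 on the log2 scale and passed at each. TBX2 differed by -0.18, -0.40 and -0.35, of which the last 2 passed.

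The 10 helix-loop-helix partners and inhibitors of TWIST, among them TCF4, split 3 higher and 6 lower with CSE 5% at 5 weeks (23% and 40.3% of all clusters), and 3 higher and 2 lower with the earlier controls (13.1% and 13% of all clusters). The ID proteins bind such partners and keep them from DNA. With CSE 10%, ID1, ID3 and ID4 were called lower at 3 weeks (-0.99, -0.93 and -0.70) and against the week-5 controls at 5 weeks (-1.70, -1.24 and -1.20), where all 3 were lower with CSE 1% and 5% too. With the earlier controls, ID1 differed by -0.16, -0.40 and -1.37 with CSE 1%, 5% and 10%, and ID4 by 0.08, -0.60 and -0.73, and both passed at the 2 higher concentrations. ID3 was higher with CSE 1% and 5% (0.53 and 0.30) and did not pass with CSE 10% (-0.24).

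The precursor genes of the miR-200 family were not called at 3 weeks with any concentration, and at 1 week the only call was of MIR200C with CSE 1% (-0.43). At 5 weeks with the week-5 controls MIR429 was lower with each concentration (-0.34, -0.50 and -0.40), MIR200A with CSE 1% (-0.28), and MIR141 (-0.29) and MIR200C (-0.36) with CSE 5%. With the earlier controls the differences with CSE 5% were 0.01 for MIR200A, -0.11 for MIR200B, -0.10 for MIR429, -0.29 for MIR200C and -0.09 for MIR141. MIR200C alone passed, and with CSE 10% it was 0.07. Neither the group with the seed AAUACUG nor the one with AACACUG was called as a whole. The part of these genes in the levels of ZEB1 was not tested. MIR21, a microRNA gene induced by TGF-β, was higher by 0.88, 0.78 and 0.89 with CSE 1%, 5% and 10%.

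**Figure D4:**
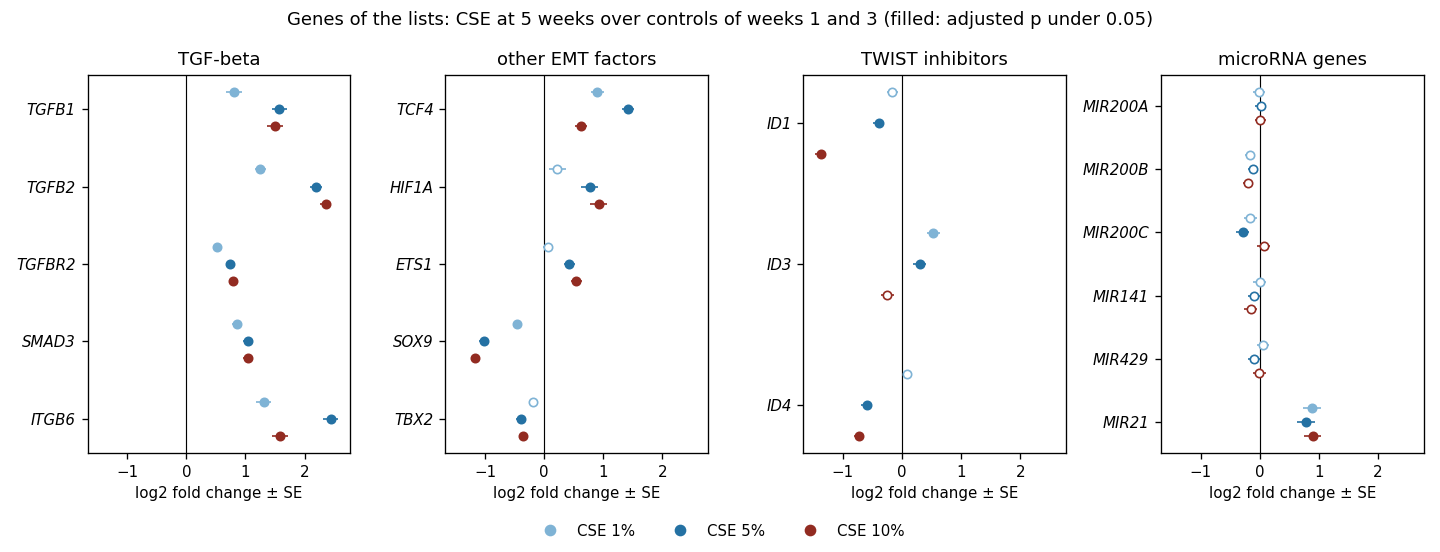
Genes of the TGF-β list, the other EMT factors, the ID inhibitors of TWIST and the microRNA genes (rows): log2 fold change ± SE with CSE 1%, 5% and 10% at 5 weeks over the controls of weeks 1 and 3; filled points passed an adjusted p under 0.05. TGFB2 and ITGB6 reach above 2 with CSE 5%, ID1 is -1.37 with CSE 10%, and of the miR-200 genes only MIR200C with CSE 5% (-0.29) is filled.

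Among the 28 kinases, ubiquitin ligases, corepressors and chromatin partners of SNAIL, 17 were called higher and 5 lower with CSE 5% at 5 weeks (median 0.48), where all clusters stood at 23% and 40.3%. Over the earlier controls 9 were higher and 6 lower (median 0.14), where all clusters stood at 13.1% and 13%. GSK3B, the kinase that marks SNAIL protein for destruction, was higher by 0.26, 0.32 and 0.18 with CSE 1%, 5% and 10% with the earlier controls. FBXL5, a ubiquitin ligase that binds SNAIL, was higher by 0.27, 0.40 and 0.66, and PRKD1, a kinase that phosphorylates it, by 0.38, 0.42 and 0.31. HDAC1 passed with CSE 5% only (0.26). HDAC2, higher by 1.27 with CSE 5% against the 5-week controls, was 0.22 with the earlier ones and did not pass.

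Other epithelial transcription factors, 15 in number, were called higher in 4 cases and lower in 9 with CSE 5% at 5 weeks (median -0.38, beside 23% and 40.3% of all clusters called), and in 3 and 6 with the earlier controls (median -0.17, beside 13.1% and 13%). KLF4, a factor that represses SNAI2 in breast epithelium, was lower by -1.04, -1.67 and -1.79 on the log2 scale with CSE 1%, 5% and 10%. SPDEF, a factor of secretory cells, was lower by -0.37, -0.75 and -1.06. FOXA1, a pioneer factor of endoderm, was higher by 0.57, 0.55 and 0.42, and TFCP2L1, a grainyhead relative of GRHL2, by 0.65 and 0.82 with CSE 1% and 5%. ELF5, a factor of mammary and lung epithelium, was lower against the 5-week controls (-0.69 with CSE 5%) and -0.01 against the others.

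Genes that EMT factors act upon were called in both directions. Of all clusters, 23% were higher and 40.3% lower with CSE 5% at 5 weeks, and 13.1% and 13% with the earlier controls. Of 24 epithelial junction and polarity genes, 7 were called higher and 12 lower with CSE 5% at 5 weeks (median -0.23). With the earlier controls 3 were higher and 14 lower (median -0.34), so that lower calls were more frequent than over all clusters. The genes named next had the smallest adjusted p with the week-5 controls and do not give the balance of the list. MARVELD3, a tight junction protein, was lower by -0.80 on the log2 scale with CSE 5% with the earlier controls, while the tight junction genes CLDN1 (1.16) and TJP1 (0.41) and the polarity gene PARD6B (0.30) were higher. PATJ passed against the 5-week controls (1.09) and not against the others (0.24). CDH1, added after its values were seen as the classic target of the ZEB and SNAI factors, turned direction with the control. With CSE 5% at 5 weeks it was 0.25 against the 5-week controls (adjusted p = 0.0103) and -0.30 with the earlier ones (adjusted p = 0.00203). With CSE 10% it was 0.02 and -0.52, and with CSE 1% 0.38 (adjusted p = 4.64e-04) and -0.17 (adjusted p = 0.12). At 1 week it was lower with CSE 1% (-0.28, adjusted p = 0.0362) and CSE 10% (-0.42, adjusted p = 3.23e-04) and at 3 weeks no concentration passed. It was also lower with CSE 10% than with CSE 1% at 3 weeks (-0.25, adjusted p = 0.0385) and 5 weeks (-0.35, adjusted p = 0.00403). Its 5-week controls were -0.51 against the 3-week controls.

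Of 25 mesenchymal genes, 8 were called higher and 9 lower with CSE 5% at 5 weeks (median -0.13), near the 23% and 40.3% of all clusters, and 9 higher and 3 lower with the earlier controls (median 0.04, beside 13.1% and 13%). The mesenchymal genes named next had the smallest adjusted p with the week-5 controls. All of them were higher, which is not the balance of the list. FN1 (fibronectin) was higher by 2.15 with CSE 5% with the earlier controls, CDH2 (N-cadherin) by 1.63, TPM1 by 0.99, VIM (vimentin) by 0.94 and TPM2 by 0.85. FN1 and CDH2 were highest with CSE 5% and not with CSE 10% (0.67 and 0.50), unlike ZEB1. Of 16 splicing regulators and targets beside ESRP1, 9 were called higher and 5 lower with CSE 5% at 5 weeks (23% and 40.3% of all clusters), and 7 higher and 3 lower with the earlier controls (13.1% and 13%). MBNL1 and MBNL2, muscleblind splicing factors, were higher by 0.74 and 0.69, ENAH, whose exon choice ESRP proteins set, by 0.59, and RBFOX2, which favours mesenchymal splice forms, by 0.31. RBM47, a splicing factor of epithelia, was 0.83 against the 5-week controls and 0.05 against the others.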

How the data were processed

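A549 RNA was hybridised to 36 Affymetrix gene arrays, 3 in each of 12 groups. The authors ran RMA, which corrects background, normalizes between arrays and summarises probes per transcript cluster, and deposited 1 table of log2 values, from 2.29 to 14.5, with array medians from 6.72 to 6.91, used here with no further normalization or filter. R 2.11.0 and limma are also named in the submitters' notes. For the genome build, nothing was given in the sources used here. Such normalization makes array distributions alike, so a shift of most genes one way would be removed. All columns belonged to an array of the series, and 0 were left unused. Of the transcript clusters, 19460 carried 1 symbol in the platform annotation, 1754 several and 12083 none, and only the first were named.

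All arrays entered 1 limma fit (limma 3.58.1, R 4.3.3), with a mean per group, 24 residual and 3.91 prior degrees of freedom, and Benjamini-Hochberg adjustment over all 33297 clusters. It was tested on simulated data. The members, lists and tests were chosen with earlier results of these data known. Named are the members, up to 5 genes of each list with the smallest adjusted p with CSE 5% at 5 weeks and all microRNA genes used for the members, the 3 genes most like each member whose group means span at least 0.5, and 2 genes added after their values were seen. p-values measure the spread between arrays called biological replicates, and their number limits precision. Same-numbered arrays were checked for shared deviations, given with the alternatives. The alternatives were the study's rule, the replicate block, separate fits per week, cyclic loess, centring each array on 23 housekeeping genes, a trended and robust variance, the 60% brightest clusters, the mean of a gene's clusters, other controls and each array left out. For comparisons other than those with the same week's control, the scaling, block and variance alternatives were added after seeing the data.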

Additional observations from a re-analysis of the deposited data

Results flagged for a closer look

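In 4 cases the effect of CSE at 5 weeks differed from that at 1 week at an adjusted p under 0.05 for the difference itself. ZEB1 with CSE 5% differed by 0.95 on the log2 scale, with arrays at 5 weeks between 8.68 and 8.90 and at 1 week between 7.61 and 7.94. The 5-week and 1-week controls of ZEB1 had near means (7.10 and 7.08). SNAI1 with CSE 1% differed by -0.77, with 5.50, 5.53 and 5.71 at 5 weeks and 6.23, 6.42 and 6.72 at 1 week, and its 3 arrays at 1 week were spread over 0.25 (SD). SNAI2 with CSE 10% differed by -1.12, and SNAI2 with CSE 5% by -0.49. For both SNAI2 differences the 5-week controls, at a mean of 6.06, lay above the 1-week controls at 5.59, and their part was not tested. The first 3 differences passed with each array left out in turn. That of SNAI2 with CSE 5% did not pass without control replicate 1 or 2 at 1 week, control replicate 2 at 5 weeks, CSE 5% replicate 2 at 1 week or CSE 5% replicate 1 at 5 weeks (adjusted p from 0.0537 to 0.0944), nor under cyclic loess (-0.31, adjusted p = 0.146).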

How the results depend on the processing

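Of 81 comparisons of a gene with the same week's control, 26 were called. Of these the replicate block kept 25 (losing ZEB1 with CSE 1% at 1 week, adjusted p = 0.0614), separate fits per week 23, cyclic loess 16, housekeeping centring 20 (and 2 new calls), the trended and robust variance 26, the mean of a gene's clusters 26 (and 3 new) and the study's rule 4. Of the 16 called at 5 weeks, the earlier controls kept 5. Same-numbered arrays share only a number: their deviations correlated from -0.21 to 0.50, and every pair exceeded 0.1 in 1 of 9 comparisons, where the replicate block changed no call.

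Counts of the 9 genes called, in the order CSE 1%, 5% and 10%, were 1, 2 and 2 (first week), 0, 2 and 3 (3 weeks), and 5, 6 and 5 (5 weeks). With CSE 1% the count became 0 at 1 week under cyclic loess, housekeeping centring, the replicate block and the study's rule, and 1 at 3 weeks under housekeeping centring and separate fits. At 5 weeks it became 1, 2 and 2 among the 60% brightest clusters (which hold only ZEB1, TWIST1 and TWIST2) and with the earlier controls, and 1, 3 and 3 under cyclic loess. There it was also 3 with CSE 1% and 10% under housekeeping centring, 3 with CSE 1% in separate fits, and 0, 1 and 1 by the study's rule. That rule gave 0 with CSE 5% at 1 and 3 weeks and 1 with CSE 10%, and the brightest clusters gave 1 with CSE 5% at 1 and 3 weeks and 1 with CSE 10% at 1 week. Leaving out 1 array gave 0 with CSE 1% and 1 to 2 with CSE 5% at 1 week, and 2 to 6, 3 to 7 and 3 to 5 with CSE 1%, 5% and 10% at 5 weeks. Of the 26 calls, 14 held whichever array of their comparison was left out.

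Among called results, signs turned with the earlier controls for SNAI2 (0.10, 0.18 and 0.20) and for PRRX1 with CSE 1% (0.0862), and 4 uncalled ones (ZEB2 at each concentration, TWIST2 with CSE 1%) also did. A sign turned under cyclic loess for SNAI1 between controls of 5 and 3 weeks (-0.24). The median of all clusters at 5 weeks was -0.14, -0.17 and -0.17 as deposited and -0.01, -0.03 and -0.03 under cyclic loess, and the share of calls that were higher 37.7%, 36.3% and 35.6% against 50.2%, 48.1% and 48.0%. At 3 weeks housekeeping centring moved the median to 0.14, 0.12 and 0.22 and that share to 83.7%, 82.1% and 84.9% (49.4%, 49.4% and 52.9% as deposited). Some housekeeping genes were themselves called with CSE 10% at 3 weeks: SDHA (-0.79) and GPI (-0.54) lower, REEP5 (0.59) and B2M (0.40) higher. The cause of these shifts was not tested. Most of the 9 genes were near the array median or below it, where signal over background limits what a change can show.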
